A study of Chlorocebus sabaeus with 32 samples.

Results

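UHRF1, DNMT1, DNMT3A, DNMT3B, TET1, TET2 and TET3, the genes that copy, read, write and remove DNA methylation, were followed across the hippocampus of 32 vervet monkeys (Chlorocebus sabaeus). They were taken by symbol from a table of 33994 gene rows. All 7 were rows of that table, and all 7 were among the 19959 genes that passed a filter on low counts, so no gene of the group is missing from the values below. Total RNA was freed of ribosomal RNA and sequenced as strand-preserving libraries. Per the labels every animal was under 1 year old, and no treatment, genotype, sex or exact age is given. Since no 2 titles are alike, 1 library was counted as 1 animal. If some libraries came from 1 animal, the p-values below would measure technical spread as well.

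The titles open with 4 digits that take 3 values, and the labels do not say what these digits mean. A number that follows in the titles is not explained either. In ascending order of the digits the groups are called prefix A (14 libraries), prefix B (16) and prefix C (2). The series examines how the hippocampal transcriptome changes in development, and the labels place no animal within the age class. The 7 genes were therefore also read against DCX and MKI67, which vary from animal to animal. DCX encodes doublecortin, a microtubule protein of young migrating neurons, and MKI67 encodes the Ki-67 antigen of dividing cells.

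Methylation of cytosine at CpG sites is copied when DNA is replicated. UHRF1 recognises the half-methylated sites left behind the replication fork and recruits DNMT1, which methylates the new strand. DNMT3A and DNMT3B methylate sites that carried no mark, DNMT3A being the main one of the pair in neurons after birth and DNMT3B acting chiefly in the early embryo. TET1, TET2 and TET3 are dioxygenases that oxidise methylcytosine to hydroxymethylcytosine, which is abundant in brain, and further to forms that the glycosylase TDG cuts out. The dentate gyrus of the hippocampus goes on adding neurons after birth.

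Libraries held 9347635 to 19673621 gene counts, with a median of 16201657. A count of 0 would allow up to 3 counts, which is 0.152 to 0.321 CPM (counts scaled to the library total) depending on the library, and this limit covers counting error only. Replicate 1 of prefix A, numbered by order of deposition, stood apart. It had the lowest total and the highest share of reads in no gene feature, 67.1% against a median of 56.2%, and values that turn on it are given without it too. Markers of excitatory and inhibitory neurons, granule neurons, oligodendrocytes, astrocytes and microglia were detected in every prefix, and none of the marker genes present in the table was at 0 in a whole prefix. In bulk tissue, fewer cells of a type and less RNA per cell cannot be told apart. CPM take no account of gene length, so levels are compared between libraries and not between genes.

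UHRF1 varied most of the 7 between animals. Its TMM-scaled CPM ran from 1.69 over a median of 3.13 to 5.98 in prefix A and from 3.65 over 5.83 to 15.6 in prefix B. The prefix C libraries had 7.95 and 11.6 CPM. Every library of prefix B lay above the median of prefix A, and 8 of 16 lay above its highest library, so the groups overlapped only in part. The lowest value, in replicate 1, rests on 17 counts and the highest, in replicate 29, on 242. The coefficient of variation over all 32 libraries was 61.7%, against 12.4% from counting alone.

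DNMT1, the partner of UHRF1 at the replication fork, varied least. It ran from 63.2 over a median of 67.3 to 78.3 CPM in prefix A and from 69.4 over 74.1 to 83.1 CPM in prefix B, with 67.1 and 77.6 CPM in prefix C. The prefixes overlapped in part, although all 16 libraries of prefix B exceeded the median of prefix A. Of the 14 libraries of prefix A, 8 lay below the lowest of prefix B, and 4 of 16 of prefix B lay above the highest of prefix A. That highest library was replicate 1, and the next, replicate 8, had 73.9 CPM. The coefficient of variation was 7.66%, against 2.99% from counting.

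The de novo methyltransferase DNMT3A ran from 133 over a median of 151 to 171 CPM in prefix A and from 144 over 174 to 233 CPM in prefix B, with 180 and 185 CPM in prefix C. Of the 16 libraries of prefix B, 10 lay above the highest of prefix A. DNMT3B was counted only 34 to 97 times per library. Its CPM ran from 2.07 over 3.40 to 6.07 in prefix A and from 2.20 over 4.17 to 6.27 in prefix B, with 4.96 and 5.06 in prefix C. Its prefixes overlapped, with 1 library of prefix B above the highest of prefix A, which was replicate 1. The next highest of prefix A, replicate 12, had 4.40 CPM. The coefficient of variation of DNMT3B over all libraries was 26.9%, against 13.1% from counting alone.

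Among the dioxygenases, TET1 ran from 39.2 over a median of 48.2 to 70.9 CPM in prefix A and from 49.7 over 54.0 to 67.8 CPM in prefix B, with 57.0 and 66.2 CPM in prefix C. Its highest value of all was that of replicate 1, and no library of prefix B exceeded it. In the gene table of the RefSeq assembly mChlSab1.0.hap1, TET1 overlaps a pseudogene and the other 6 overlap no gene. Whether counting used strand is not given, so reads of that pseudogene and of TET1 may not have been told apart. TET2 ran from 56.0 over 68.1 to 91.7 CPM in prefix A and from 64.2 over 72.1 to 93.6 CPM in prefix B, with 60.2 and 76.8 CPM in prefix C. The top of prefix A was again replicate 1, and the prefixes overlapped. TET3 ran from 62.3 over 75.1 to 93.5 CPM in prefix A and from 59.5 over 96.7 to 161 CPM in prefix B, with 89.7 and 98.5 CPM in prefix C. Replicate 25 held the highest TET3 and DNMT3A of all libraries, while 9 of 16 libraries of prefix B exceeded the highest TET3 of prefix A. The plot of CPM by prefix shows these ranges.

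**Figure D1:**
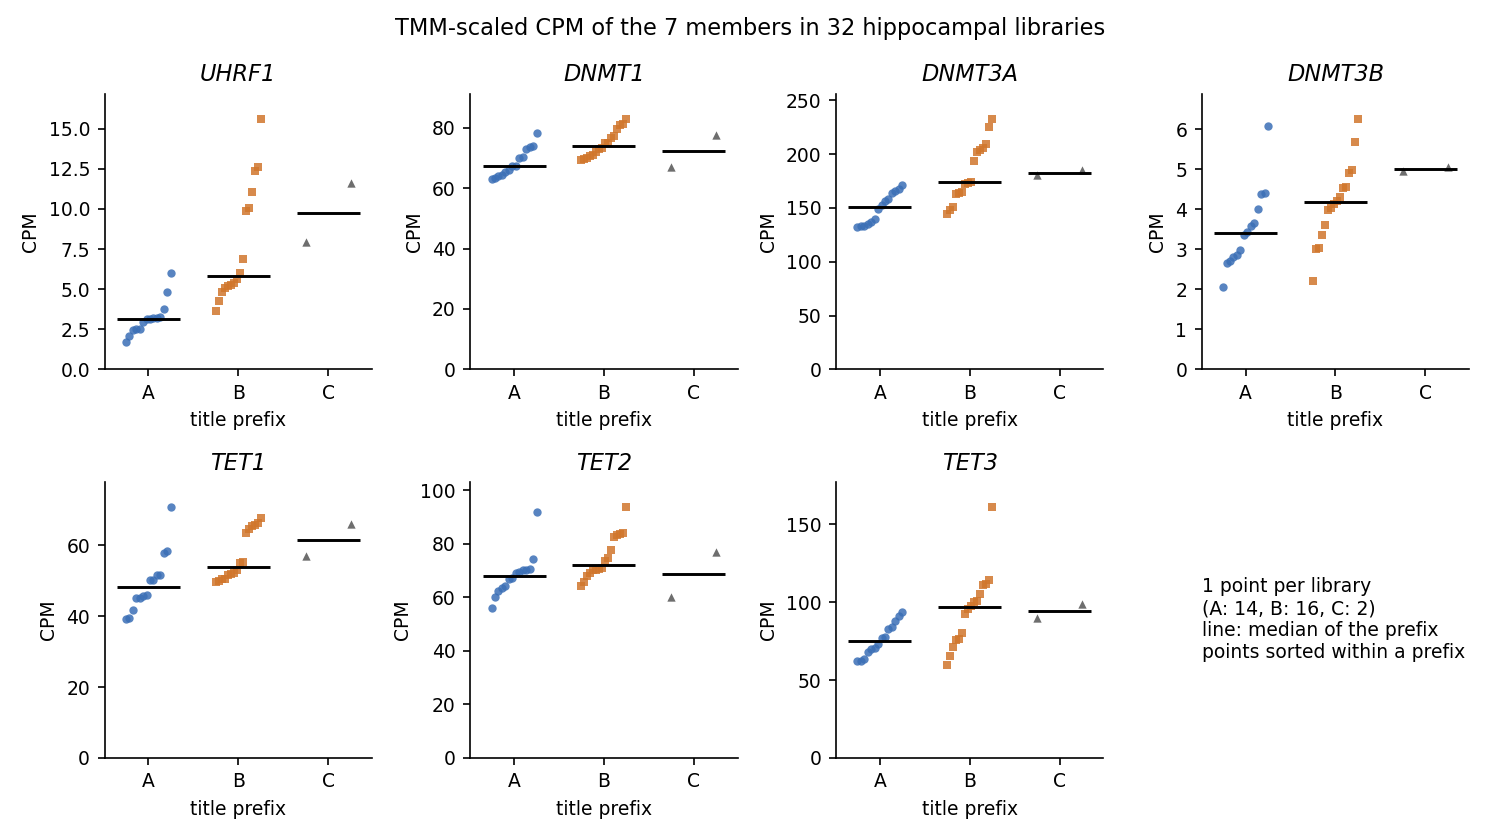
TMM-scaled CPM of the 7 genes (y axis, from 0) by the opening digits of the title (x axis), with 1 point per library, sorted within a prefix, and a line at the median. UHRF1 spreads from 1.69 to 15.6 CPM and DNMT1 from 63.2 to 83.1 CPM.

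UHRF1, DNMT1, DNMT3A and TET3 had higher counts in prefix B than in prefix A. UHRF1 was 2.41-fold higher, a log2 difference of 1.27 ± 0.20 (SE, n = 16 and 14; adjusted p = 0.000267 by the quasi-likelihood test of edgeR, with p-values adjusted over all genes by the Benjamini-Hochberg method). DNMT3A was higher by 0.29 ± 0.07 on the log2 scale (adjusted p = 0.00379), TET3 by 0.32 ± 0.10 (adjusted p = 0.0322) and DNMT1 by 0.13 ± 0.04 (adjusted p = 0.0230). The other genes did not pass the threshold of 0.05, with TET1 at 0.21 ± 0.07 (adjusted p = 0.0527), TET2 at 0.14 ± 0.06 (adjusted p = 0.111) and DNMT3B at 0.26 ± 0.13 (adjusted p = 0.187). Thus 4 of 7 were called higher and 0 lower, beside 7.88% of all genes tested called higher and 6.68% called lower. Over all genes the median log2 difference was -0.00072.

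Single libraries decided the calls of all 3 TET genes in this comparison. Without replicate 1, TET1 had 0.25 (adjusted p = 0.00723) and TET2 0.18 (adjusted p = 0.0194), and both were called. DNMT3B had 0.33 without it and was not called (adjusted p = 0.0551). TET1 was also called without replicate 8, 12, 19, 20, 23, 24 or 27, at adjusted p from 0.0345 to 0.0482. TET3 was not called without replicate 2, 6, 10, 14, 25, 26, 28 or 29, at adjusted p from 0.0508 to 0.0547. The calls of UHRF1, DNMT1 and DNMT3A held in each of the 32 fits that left out 1 library. The number that follows in the titles is below 20000 in all of prefix A and in 7 libraries of prefix B. With those 7 alone on the side of prefix B, TET3 was higher by 0.53 (adjusted p = 0.00536) and UHRF1 by 1.34 (adjusted p = 0.00324), and DNMT1 was not called (0.15, adjusted p = 0.0694).

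DCX, too, differed between the prefixes. It ran from 36.9 over a median of 43.3 to 65.8 CPM in prefix A and from 44.8 over 66.7 to 114 CPM in prefix B, with 83.9 and 99.9 CPM in prefix C, and its log2 difference was 0.69 ± 0.12 (adjusted p = 0.000638). MKI67 ran from 1.46 over 2.11 to 5.98 CPM and from 1.84 over 3.51 to 6.33 CPM, with 2.88 and 3.70 CPM in prefix C. Its difference of 0.57 ± 0.21 did not pass (adjusted p = 0.0664). All 9 young neuron markers tested were higher in prefix B, and their summed level ran from 887 to 1708 CPM in prefix A, from 988 to 2471 CPM in prefix B and from 2207 to 2485 CPM in prefix C. Markers of other cells differed between the prefixes as well. Called higher in prefix B were 3 of 8 neural progenitor markers, 3 of 6 of oligodendrocyte precursors, 2 of 5 of microglia, 1 of 6 of mural cells and fibroblasts and 1 of 4 of inhibitory neurons. Of the division genes, 2 of 10 of mitosis and 2 of 12 of replication were called higher and 0 lower. Called lower were 2 of 4 excitatory neuron markers, SLC17A7 and CAMK2A, and 1 of 2 blood markers, beside 7.88% of all genes called higher and 6.68% lower. Their part in the differences of the 7 genes was not tested. With DCX as a covariate, 0 of 7 methylation genes were called between the prefixes. UHRF1 was then at 0.40 (adjusted p = 0.378), DNMT1 at 0.08 (adjusted p = 0.581), DNMT3A at 0.05 (adjusted p = 0.839), DNMT3B at -0.09 (adjusted p = 0.876) and TET3 at -0.09 (adjusted p = 0.781). That fit called 0 of all genes tested, and 1 of 7 at an unadjusted p under 0.05. With MKI67 as a covariate 2 of 7 were called, DNMT1 (0.10, adjusted p = 0.134) and TET3 (0.19, adjusted p = 0.256) no longer being among them. The fit with MKI67 called 1439 of all genes tested, against 2907 without a covariate. How far the prefixes and the level of young neuron genes overlap was not tested beyond these fits.

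Across the 32 animals, 6 of the 7 genes had more counts where DCX was higher. Slopes are log2 changes per SD of log2 CPM of DCX, where 1 SD over the 32 libraries is 0.49 or 1.41-fold. A fit on fewer libraries took the SD within those libraries. Sizes of slopes in 1 prefix alone are therefore not on the scale of those over all libraries. UHRF1 had the steepest slope of the 7, 0.76 ± 0.06 (SE; adjusted p = 7.58e-11). TET3 followed with 0.25 ± 0.04 (adjusted p = 2.38e-06), DNMT3B with 0.24 ± 0.06 (adjusted p = 0.00156), DNMT3A with 0.19 ± 0.02 (adjusted p = 3.58e-07) and TET1 with 0.15 ± 0.03 (adjusted p = 0.000184). DNMT1 had a shallow but called slope of 0.06 ± 0.02 (adjusted p = 0.0160). The size of its slope was below the median size over all genes, which was 0.063. TET2 had 0.06 ± 0.03 and was not called (adjusted p = 0.101). Beside these 6 of 7, 13.1% of all genes had a called positive slope and 13.1% a called negative one. TET2 was called without replicate 1 (0.08, adjusted p = 0.0152) or without replicate 31 (0.08, adjusted p = 0.0351), and the other calls held in every fit that left out 1 library.

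On MKI67, the marker of dividing cells, TET1 and TET3 had called slopes. Here 1 SD is 0.63 on the log2 scale, or 1.55-fold. TET1 had a slope of 0.16 ± 0.03 (adjusted p = 0.00559) and TET3 0.18 ± 0.05 (adjusted p = 0.0411). DNMT3B at 0.21 ± 0.06 (adjusted p = 0.0568), DNMT3A at 0.11 ± 0.04 (adjusted p = 0.106), DNMT1 at 0.05 ± 0.02 (adjusted p = 0.146), TET2 at 0.07 ± 0.03 (adjusted p = 0.160) and UHRF1 at 0.34 ± 0.14 (adjusted p = 0.175) did not pass. The count of 2 of 7 stands beside 1.26% of all genes with a called positive slope and 0.696% with a called negative one. MKI67 itself was counted only 24 to 115 times per library, with a coefficient of variation of 46.5%, against 15.2% from counting alone.

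The calls on MKI67 rested in part on single libraries. UHRF1 (0.46, adjusted p = 0.0333) and DNMT3A (0.13, adjusted p = 0.0163) were called without replicate 15, which had 12.6 CPM of UHRF1 beside 1.84 CPM of MKI67, the lowest of prefix B. DNMT3B was called without replicate 1, 8, 15, 16, 21, 28 or 32, at adjusted p from 0.0219 to 0.0472. TET3 was not called without replicate 2, 3, 4, 5, 6, 10, 13, 14, 17, 22, 25 or 29, at adjusted p from 0.0530 to 0.0934. The call of TET1 held without any single library.

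**Figure D2:**
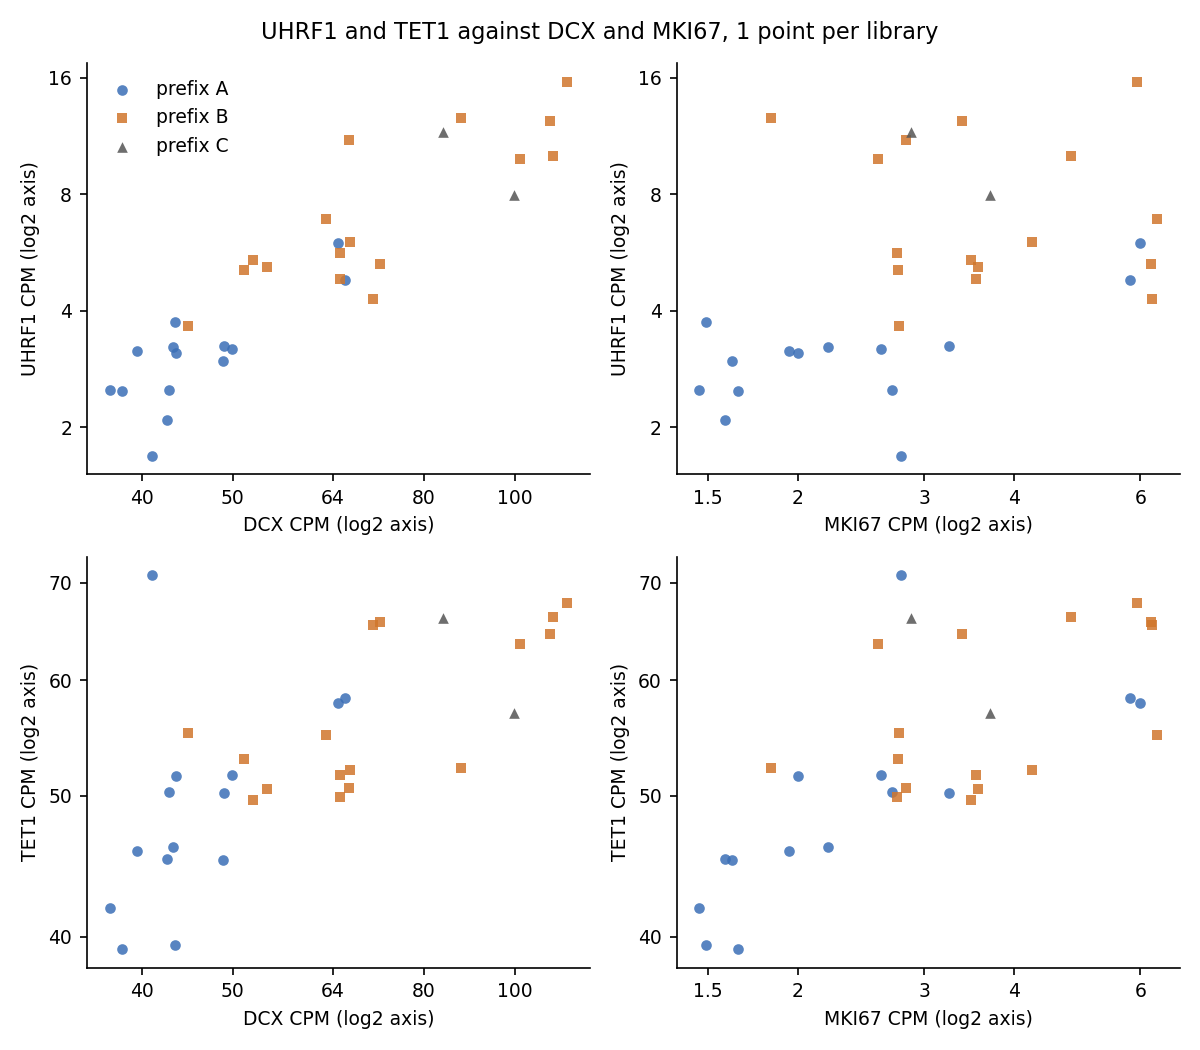
UHRF1 (top) and TET1 (bottom) against DCX (left) and MKI67 (right), in TMM-scaled CPM on log2 axes, with 1 point per library and the title prefix by colour and shape. Over the 32 libraries UHRF1 has r = 0.91 with DCX and 0.45 with MKI67, and in prefix B alone 0.83 and -0.11.

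With both references in 1 fit, 5 of 7 slopes on DCX were called and 0 of 7 on MKI67. Given MKI67, UHRF1 had a slope on DCX of 0.80 ± 0.07 (SE; adjusted p = 1.46e-09), DNMT3A 0.19 ± 0.03 (adjusted p = 1.61e-05), TET3 0.22 ± 0.04 (adjusted p = 0.000291), DNMT3B 0.18 ± 0.06 (adjusted p = 0.0448) and TET1 0.10 ± 0.03 (adjusted p = 0.0252). DNMT1 at 0.04 ± 0.02 (adjusted p = 0.140) and TET2 at 0.03 ± 0.03 (adjusted p = 0.509) did not pass. These 5 of 7 stand beside 22.9% of all genes called in either direction. Given DCX, 0 of 7 had a called slope on MKI67, where 0.0200% of all genes were called and DESeq2 and limma-trend called 0 of 7 as well. TET1 came nearest, at 0.11 ± 0.03 with an unadjusted p of 0.00253 (adjusted p = 0.241), and was the only gene of the 7 with an unadjusted p under 0.05. UHRF1 had -0.08 ± 0.08 (adjusted p = 0.657). These values are over all 32 libraries. In prefix A alone, 0 of 7 slopes on MKI67 given DCX were called, beside 0 of all genes. There 6 of 7 had an unadjusted p under 0.05 by edgeR, against 1 of 7 in prefix B alone. DCX and MKI67 were themselves correlated, with r = 0.57 over the 32 libraries.

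Among the joint slopes, those of DNMT3B and TET1 lost their call without single libraries. DNMT3B kept its call in 11 of 32 fits without 1 library, the adjusted p reaching 0.111 without replicate 15, and the 21 libraries whose removal ended it were replicates 2 to 5, 8, 9, 12, 13, 15, 17, 18, 20, 21, 24 and 26 to 32. TET1 lost its call without replicate 26, 28 or 32, at 0.08 to 0.09 and adjusted p from 0.0575 to 0.0857. UHRF1, DNMT3A and TET3 kept theirs in each fit without 1 library, and with the prefix as a factor they were the 3 of 7 called. The fit with that factor called 1361 of all genes tested, against 4565 without it. In prefix A alone 0 of 7 joint slopes on DCX were called. Per SD within that prefix, those of DNMT3A (-0.02) and TET3 (-0.11) were negative, while UHRF1 had 0.40. The size of these slopes cannot be set against that over all libraries, which is per another SD.

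**Figure D3:**
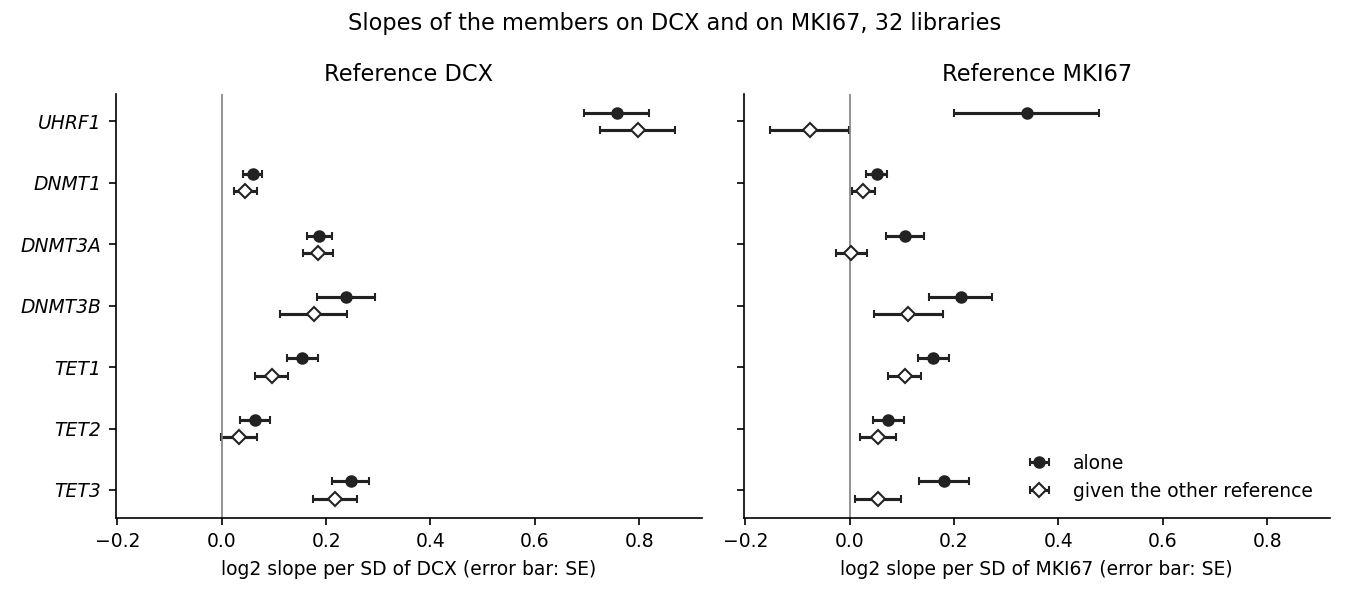
Slopes of the 7 genes on DCX (left) and MKI67 (right), as log2 change per SD of the reference (x axis) with SE bars, alone (filled circles) and with the other reference in the fit (open diamonds). The UHRF1 slope on DCX is 0.76 alone and 0.80 given MKI67, and its slope on MKI67 goes from 0.34 to -0.08.

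Correlations of log2 CPM over the 32 libraries were highest for UHRF1 as well. With DCX it had Pearson's r = 0.91 and Spearman's rho = 0.90 (two-sided permutation p = 1e-05 for both, the smallest that 100000 resamples can give, adjusted p = 0.000231 and 0.000276). DNMT3A had r = 0.83 and rho = 0.82 and TET3 r = 0.77 and rho = 0.73. TET1 had r = 0.70 and rho = 0.71, DNMT3B r = 0.64 and rho = 0.68, and DNMT1 r = 0.54 and rho = 0.48. Over these 6 genes the permutation p was at most 0.00161 by r and 0.00538 by rho, and the adjusted p at most 0.0105 and 0.0267. TET2 had r = 0.37 and rho = 0.41 and was not called (permutation p = 0.0391, adjusted p = 0.114). The 6 of 7 genes called by Pearson's r stand beside 13.2% of all genes with a called positive r. Without replicates 25 and 29, the libraries farthest from the median of DCX, r was 0.89 for UHRF1, 0.79 for DNMT3A, 0.72 for TET3, 0.63 for TET1, 0.59 for DNMT3B, 0.56 for DNMT1 and 0.19 for TET2.

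Within the prefixes the relation of UHRF1 to DCX kept its direction. In prefix B, r with DCX was 0.83 for UHRF1 (permutation p = 0.00014, adjusted p = 0.0152), 0.79 for TET3 (adjusted p = 0.0224) and 0.75 for DNMT3A (adjusted p = 0.0411), and these 3 of 7 stand beside 1.89% of all genes. It was 0.70 for TET1, 0.61 for DNMT3B, 0.43 for TET2 and 0.32 for DNMT1, none of which passed (adjusted p from 0.0613 to 0.537). By rho, TET3 alone passed in prefix B, at 0.78 (permutation p = 0.00071, adjusted p = 0.0474). In prefix A, r was 0.79 for UHRF1 (permutation p = 0.00115, adjusted p = 0.182), 0.64 for DNMT3A, 0.50 for TET3, 0.49 for DNMT3B and for TET1, 0.24 for DNMT1 and -0.01 for TET2. There 0 of 7 were called beside 0% of all genes, and UHRF1 and DNMT3A had an unadjusted p under 0.05. With the prefix as a factor in the fit over all libraries, 5 of 7 slopes on DCX were called, among them UHRF1 at 0.62 (adjusted p = 1.56e-05), and DNMT1 was not (0.04, adjusted p = 0.427). That fit called 1575 of all genes tested in either direction, against 5214 without the factor. Replicates 8 and 12 had the highest DCX, MKI67, UHRF1 and DNMT3A of prefix A. A difference of the DCX slope between the prefixes was called for 0 of 7 genes by edgeR, beside 0.00501% of all genes, with 0 of 7 at an unadjusted p under 0.05 and 0 of 7 called by limma-trend. That difference, prefix B minus prefix A, was -0.06 ± 0.19 (SE) for UHRF1 and 0.13 ± 0.12 for TET3.

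With MKI67, TET1 was the 1 gene of the 7 called by Pearson's r over the 32 libraries, at r = 0.71 and rho = 0.69 (permutation p = 3e-05 and 4e-05, adjusted p = 0.0133 and 0.0190), beside 1.13% of all genes. The others had r from 0.42 for TET2 to 0.55 for DNMT3B (adjusted p from 0.0556 to 0.165), with UHRF1 at r = 0.45 and rho = 0.53 (permutation p = 0.0103 and 0.00190, adjusted p = 0.135 and 0.0579). DNMT3B passed by rho, at 0.58 (permutation p = 0.00063, adjusted p = 0.0416). Without replicates 17 and 21, the farthest from the median of MKI67, r was 0.71 for TET1 and 0.48 for UHRF1. Leaving out replicate 15 gave called values of r for UHRF1 (0.54), DNMT3A (0.61), DNMT3B (0.59) and TET3 (0.60). DNMT3B was also called without replicate 1, 8, 16, 21, 28, 30 or 32 and TET3 without replicate 1, 8, 20 or 28.

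Within a prefix, none of the 7 was called on MKI67 by Pearson's r. In prefix A, r with MKI67 was 0.81 for DNMT3A, 0.77 for TET3, 0.73 for TET1, 0.72 for DNMT3B, 0.61 for UHRF1, 0.58 for DNMT1 and 0.34 for TET2 (adjusted p from 0.106 to 0.687). By rho DNMT3B passed there, at 0.87 (permutation p = 0.00013, adjusted p = 0.0447). In prefix B r was 0.55 for TET1, 0.32 for TET2, 0.27 for TET3, 0.24 for DNMT3B, -0.05 for DNMT3A, -0.11 for UHRF1 and -0.12 for DNMT1 (adjusted p from 0.796 to 0.970). The called share was 0% of all genes in prefix A and 0% in prefix B. With the prefix as a factor in the fit, 0 of 7 slopes on MKI67 were called by edgeR and 3 of 7 had an unadjusted p under 0.05, TET1 having 0.14 (adjusted p = 0.0866) and TET3 0.13 (adjusted p = 0.322). DCX and MKI67 had r = 0.85 with each other in prefix A and 0.16 in prefix B. The difference of MKI67 slopes, prefix B minus prefix A, was not called for any of the 7 (0 of 7 by edgeR, 0 of 7 by limma-trend, 0 of 7 at an unadjusted p under 0.05, 0% of all genes). For UHRF1 it was -0.37 ± 0.21 (SE, unadjusted p = 0.0899) and for DNMT3A -0.13 ± 0.07 (unadjusted p = 0.0741).

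The share of reads in no gene feature was higher in libraries with more TET1, TET2, TET3 and DNMT3B. Over the 32 libraries r with that share was 0.72 for TET2, 0.54 for TET1, 0.52 for TET3 and 0.43 for DNMT3B, and these 4 of 7 were called (two-sided permutation tests of 100000 resamples, adjusted p = 9.22e-05, 0.00525, 0.00694 and 0.0339) beside 21.8% of all genes with a called positive r. It was 0.39 for DNMT3A, 0.22 for DNMT1, -0.17 for UHRF1 and 0.04 for DCX, none called. Spearman's rho was 0.77 for TET2, 0.55 for TET1, 0.60 for TET3 and 0.43 for DNMT3B, and DNMT3A passed by rho (0.51, permutation p = 0.00322, adjusted p = 0.0124). TET2 kept r = 0.88 in prefix A and 0.75 in prefix B, and TET3 0.75 in each, all called. TET1 (0.80 and 0.64), DNMT3A (0.69 and 0.62) and DNMT3B (0.66 and 0.50) were called in prefix A but not in prefix B. Without replicates 1 and 17, the farthest from the median share, TET2 had r = 0.66 and TET3 0.55, while TET1 at 0.40 and DNMT3B at 0.32 were no longer called and DNMT3A at 0.47 was. With the share as a covariate, TET1 (0.24, adjusted p = 0.00192) and TET2 (0.16, adjusted p = 0.00206) were called higher in prefix B, so that 6 of 7 were, and the slope of TET2 on DCX was called too (0.06, adjusted p = 0.0208). Over all genes, that covariate raised the calls in either direction from 2907 to 4276 between the prefixes and from 5214 to 6798 for slopes on DCX. With the share taken out of both genes, TET2 and DCX had r = 0.49 (adjusted p = 0.0192). What sets the share of reads in no feature was not tested.

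DNMT3A and TET3, a writer and an eraser, varied together more closely than any other pair of the 7. This relation was taken up after the values had been seen. Over the 32 libraries r was 0.92 and rho 0.94 (permutation p = 1e-05 for both, adjusted p = 0.000288 and 0.000266 over all genes against DNMT3A). It was 0.94 in prefix A and 0.90 in prefix B, each called, and 0.93 without replicates 15 and 25, the farthest from the median of DNMT3A. With the share of reads in no feature taken out of both, r was 0.91. All of the other 6 genes had a called r with DNMT3A, beside 12.3% of all genes: UHRF1 0.74, DNMT3B 0.73, TET1 0.71, DNMT1 0.67 and TET2 0.65.

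UHRF1 and its partner DNMT1 had an r of 0.42 and a rho of 0.44 over the 32 libraries (permutation p = 0.0171 and 0.0111, adjusted p = 0.0533 and 0.0393 over all genes against UHRF1). It was -0.06 in prefix A and 0.16 in prefix B, and 0.60 without replicates 1 and 29, the lowest and highest UHRF1. Between UHRF1 and DNMT3A, r was 0.21 in prefix A and 0.66 in prefix B. Replicate 1, with the lowest UHRF1 but the highest DNMT1, DNMT3B, TET1, TET2 and TET3 of its prefix, is among the 32 libraries and the prefix A values. Over the other 31 libraries, r was 0.53 between UHRF1 and DNMT1, a call that the 32 libraries did not give by r (permutation p = 0.00250, adjusted p = 0.0114), and 0.78 between UHRF1 and DNMT3A.

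**Figure D4:**
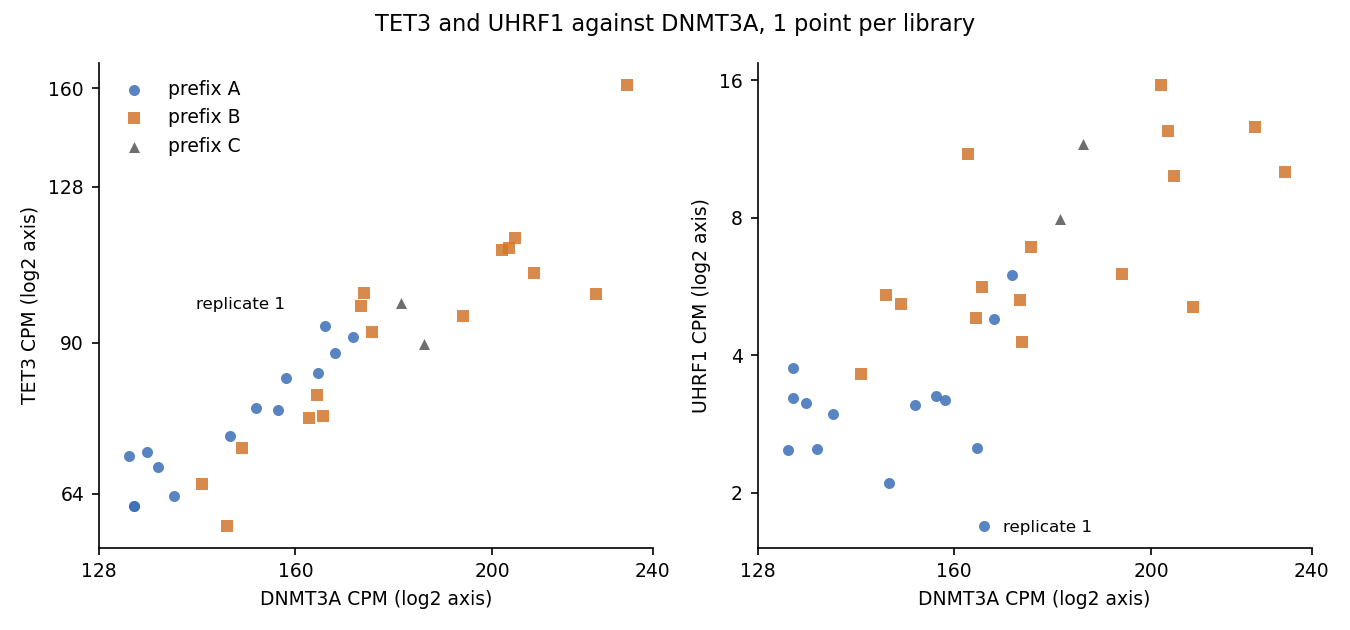
TET3 (left) and UHRF1 (right) against DNMT3A, in TMM-scaled CPM on log2 axes, with 1 point per library and the title prefix by colour and shape. TET3 follows DNMT3A in both large prefixes (r = 0.94 and 0.90), and UHRF1 does so less closely (r = 0.21 and 0.66), with replicate 1 at the bottom.

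The genes whose log2 CPM followed each of the 7 most closely were listed by Pearson's r over the 32 libraries among 12917 other genes, as a description with no test. These libraries share their scaling and the prefix structure above. For UHRF1 they were DPYSL3 (r = 0.94), a CRMP family protein of growing axons, YBX1 (0.94), a cold shock domain protein, PTK7 (0.93), a Wnt coreceptor, and TDG (0.93), the glycosylase named above, with DCX at rank 15 and DNMT1 at rank 2609. For DNMT1 they were the receptor NOTCH1 (0.80), the acid-sensing channel ASIC1 (0.78), the semaphorin receptor PLXND1 (0.78) and NCKAP5L (0.77). DNMT3A was followed by the NMDA receptor subunit GRIN2D (0.93), TET3 (0.92), SEMA4G (0.92) and ATF7IP (0.89), a partner of the histone methyltransferase SETDB1.

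DNMT3B had PCDH15 (r = 0.83), SH2B2 (0.83), agrin or AGRN (0.82) and the Polycomb cofactor JARID2 (0.82) nearest to it. TET1 was nearest to PTPRZ1 (0.88), a receptor phosphatase of oligodendrocyte precursors and other glia, APC (0.88), ARHGEF26 (0.86) and the growth factor receptor EGFR (0.85). TET2 was nearest to the synaptic adhesion protein IGSF9B (0.91), ZNF704 (0.89), ANKS1A (0.85) and the zinc finger factor KLF6 (0.84). For TET3 they were the kinesin KIF21B (0.92), DNMT3A (0.92), NAV1 (0.87) and GRIN2D (0.87). Only the lists of DNMT3A and TET3 shared a gene outside the 7, GRIN2D.

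Genes that work beside the 7 are given list by list, and their counts of called slopes on DCX stand beside 13.1% of all genes in each direction. Of 10 genes tested from a list of methyl-CpG readers and other MBD family genes, 1 had a called positive slope. It was UHRF2 (0.05 ± 0.02 SE, adjusted p = 0.0369), the paralog of UHRF1. Another 3 had called negative slopes: ZBTB4 (-0.14 ± 0.02), MBD3 (-0.11 ± 0.02) and MBD2 (-0.09 ± 0.02). The list's median slope was -0.05, beside -0.00012 over all genes. Of 9 maintenance partners, 2 had called positive slopes and 0 negative ones, with a median of 0.06. They were LIG1, the ligase of the lagging strand, at 0.14 ± 0.02 (adjusted p = 9.35e-06), and TRIM28 at 0.07 ± 0.02 (adjusted p = 0.0309). HELLS, the remodeller that aids maintenance methylation, had 0.06 ± 0.03 (adjusted p = 0.138) and the sliding clamp PCNA -0.03 ± 0.03 (adjusted p = 0.527).

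Of 11 demethylation and repair genes, 2 had called positive slopes on DCX and 1 a negative one, with a median of -0.01, and these counts are near the 13.1% of all genes in each direction. TDG had 0.32 ± 0.02 (adjusted p = 9.60e-12) and CXXC4, a CXXC domain partner of TET2, 0.19 ± 0.05 (adjusted p = 0.00358). The stress gene GADD45B had -0.19 ± 0.05 (adjusted p = 0.00714). In the prefix comparison, where 7.88% of all genes were called higher and 6.68% lower, TDG was higher in prefix B by 0.45 ± 0.09 (adjusted p = 0.00121) and CXXC4 by 0.39 ± 0.10 (adjusted p = 0.00886), and 0 of the 11 were called lower. LIG1 was higher by 0.23 ± 0.05 (adjusted p = 0.00256), the only call among the partners. MBD2 was lower, at a log2 difference of -0.14 ± 0.05 (adjusted p = 0.0373), the only call among the readers and other MBD family genes.

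The methyl donor cycle, which makes the methyl group the DNMT enzymes use, had 2 called positive and 5 called negative slopes on DCX among 13 genes, with a median of -0.04, beside 13.1% of all genes in each direction. The count of positive slopes is near that share. The reductase MTRR (-0.10 ± 0.02) and MAT2B (-0.12 ± 0.03) were negative and MTR (0.06 ± 0.02) was positive. In prefix B, 4 of the 13 were called lower and 0 higher, beside 6.68% and 7.88% of all genes, with a list median of -0.07. Among the lower ones were MTRR, SHMT2 and AHCY, with log2 differences of -0.16, -0.18 and -0.17. Of 7 enzymes that make or clear the cosubstrate of the TET enzymes or its analogue, 1 was called positive on DCX, IDH1 (0.15 ± 0.03), and 1 negative, IDH3G (-0.11 ± 0.04), which is near the share of all genes. Between the prefixes 0 of these 7 were called by edgeR. IDH2 came nearest, at 0.19 ± 0.07 (adjusted p = 0.0545).

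Division genes were counted on DCX beside the same 13.1% of all genes in each direction. Of 12 replication genes, 4 had called positive slopes and 1, TYMS (-0.21 ± 0.06), a negative one, with a median of 0.10. The positive ones included MCM7 (0.12 ± 0.04), CDT1 (0.17 ± 0.05) and MCM6 (0.11 ± 0.04). Of 10 mitosis genes, 6 had called positive slopes, among them the checkpoint kinase BUB1 (0.46 ± 0.08) and the topoisomerase TOP2A (0.30 ± 0.07), with a median of 0.18. On MKI67, 4 of the 10 mitosis genes were called, TOP2A, KIF11, BUB1 and AURKB, and 0 of the 12 replication genes, beside 1.26% of all genes with a called positive slope. In the joint fit, 0 of the 10 mitosis and 0 of the 12 replication genes had a called slope on MKI67 given DCX. The part of dividing cells in the slopes of the 7 genes on DCX was not tested, and the joint fit is no test of it.

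**Figure D5:**
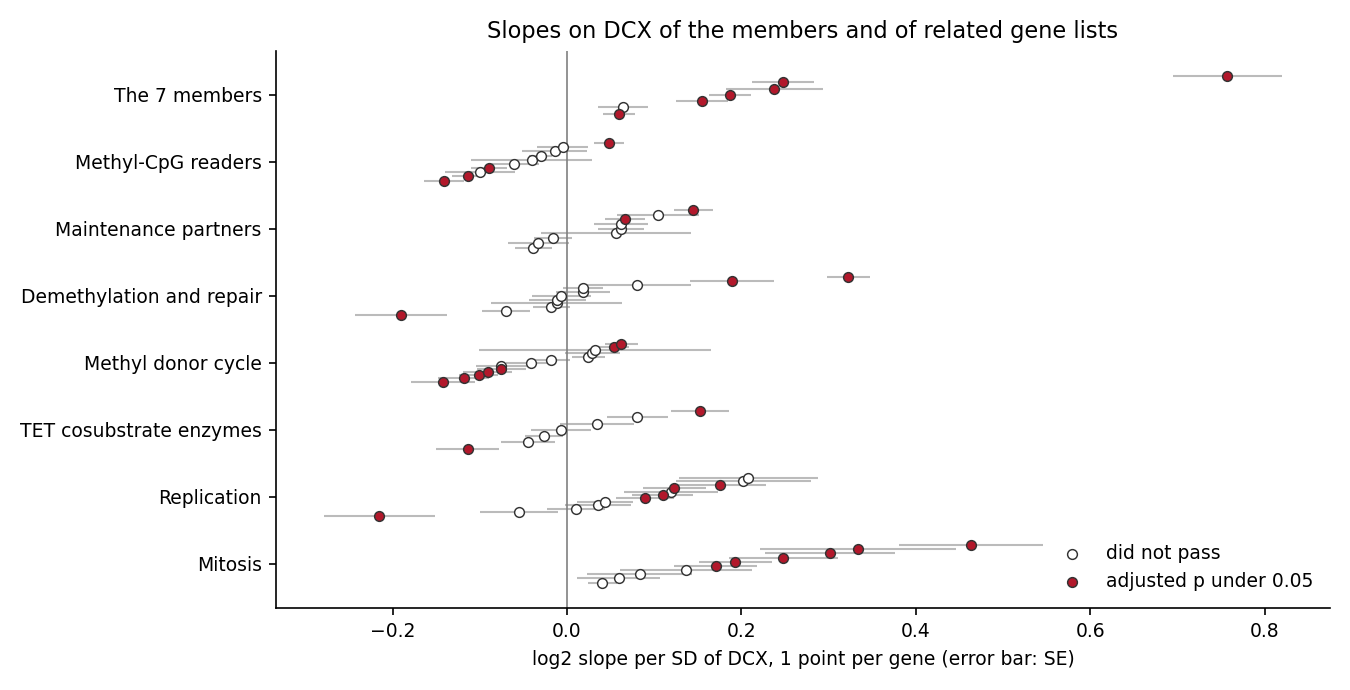
Slopes on DCX (x axis, log2 per SD, with SE bars) of the 7 genes, called members in the plot, and of 7 related gene lists, with 1 point per gene. Filled points passed an adjusted p of 0.05, and 6 of the 7 genes are filled and positive. The methyl-CpG reader list, which includes other MBD family genes, and the methyl donor cycle hold more filled points below 0 than above.

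Markers of several cell types had called slopes on DCX in both directions, beside 13.1% of all genes in each. Of 9 young neuron markers 8 had called positive slopes, of 6 oligodendrocyte precursor markers 4, of 6 mural and fibroblast markers 5 and of 8 neural progenitor markers 4, with 0 called negative in these 4 lists. Of 4 endothelial markers 2 were called positive and 0 negative. Of 6 oligodendrocyte markers 2 were called negative and 0 positive, of 4 excitatory neuron markers 2 and 0 (median -0.19), and of 2 blood markers 2 and 0. Of 5 astrocyte markers 1 was called positive and 2 negative, of 5 microglia markers 2 and 1, and of 3 granule and 4 inhibitory neuron markers 1 each was called negative. The 1 choroid plexus marker tested was not called. Summed over the 2 choroid plexus markers in the table, the level ran from 18.3 over a median of 23.3 to 52.8 CPM in prefix A. It ran from 15.9 over 19.4 to 410 CPM in prefix B and from 18.6 to 21.7 CPM in prefix C. The summed level of the precursor markers ran from 834 to 1476 CPM in prefix A, from 1109 to 1709 CPM in prefix B and from 1281 to 1422 CPM in prefix C. That of the mural and fibroblast markers ran from 78.4 to 379 CPM, from 110 to 334 CPM and from 180 to 256 CPM. No marker present in the table was at 0 in a whole prefix in either list. The part of these cells in the slopes of the methylation genes was not tested.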

How the data were processed

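Hippocampal RNA was sequenced as 32 libraries after removal of ribosomal RNA, per the labels' protocols. The values the authors deposited are raw counts per gene, in 1 table. STAR and HTSeq were used, per the submitters' processing notes. Versions, genome build, annotation and the strand setting are not stated by any label or header. Besides 33994 gene rows the table has 5 summary rows, which entered neither library sizes nor tests. A median of 34.2% of reads per library fell in genes and 56.2% in no feature. No 2 libraries were alike within counting noise (chi-square per degree of freedom of at least 3.91 over 496 pairs).

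The 7 genes and the lists were chosen with earlier results of these data known, so they are no independent support for any pattern. Genes were kept by filterByExpr (minimum count 10, minimum total 15, minimum proportion 0.7), scaled by TMM and tested by the quasi-likelihood test of edgeR 4.0.16 in R 4.3.3, with Benjamini-Hochberg adjustment over all genes tested and a threshold of 0.05. Prefix A, B and C are titles that open with 2009, 2010 and 2011. They were compared in 1 fit over all 32 libraries. For slopes, log2 CPM (prior count 2) of DCX or MKI67 was the covariate, standardised within the libraries of each fit. The references were left out of the genes tested. SE is the log2 value divided by the root of F. Pearson's r and Spearman's rho of log2 CPM were tested by permutation of libraries (100000 resamples, two-sided) for all genes at once and adjusted over them. No reference had a gap that would split the libraries into clusters. Correlations with DNMT3A, with UHRF1 and with the no-feature share, and residuals on that share, were chosen after seeing the data.

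Named genes are the 7, DCX and MKI67, for each of the 7 the 4 genes of highest r with a symbol and a mean CPM of at least 1, and up to 4 of each list with the smallest p. HELLS and PCNA were named after their values had been seen. Some genes of the lists enter the counts but are not reported here by name. The lists, 5 of pathways and 15 of cell types or division, hold 150 genes, of which 142 were rows and 135 were tested. The scripts were tested on simulated data. Alternatives covered DESeq2 size factors, no filter, DESeq2 1.42.0, limma-trend in limma 3.58.1, covariates, subsets of libraries and leaving out each library. Neither list scores nor set tests were used. Statistics also used numpy 2.4.6, scipy 1.17.1 and pandas 2.3.3 in Python 3.11.15, and figures were drawn with matplotlib 3.10.9.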

Additional observations from a re-analysis of the deposited data

How the results depend on the processing

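Of the 4 genes called between prefix A and B, 0 were called with DCX as a covariate and 2 with MKI67 as a covariate, where with DCX DNMT3B was -0.091 and TET3 -0.091. Of the 6 called slopes on DCX, 0 were called in prefix A alone, where TET2 had -0.0057. Of the 2 called slopes on MKI67, 1 was called with no filter on low counts, with the library total or with the no-feature share as a covariate, and 0 with the prefix as a factor, in prefix A or in prefix B. In prefix B alone, UHRF1 then had -0.057, DNMT1 -0.010 and DNMT3A -0.016. Of the 5 slopes on DCX called given MKI67, 3 were called with the prefix as a factor and 3 without the 2 farthest libraries, but 0 in prefix A alone. There DNMT1 had -0.086, DNMT3A -0.022, DNMT3B -0.18, TET1 -0.12, TET2 -0.18 and TET3 -0.11.

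Given DCX, the slope of DNMT3A on MKI67 was -0.015 with the library total, -0.025 with the no-feature share, -0.0051 with the prefix as a factor and -0.041 in prefix B alone. That of DNMT1 in prefix B was -0.015, and that of TET3 with the no-feature share -0.0011. The 6 genes whose r with DCX was called became 0 in prefix A, where TET2 had r = -0.0054, and 3 in prefix B. The 1 gene called with MKI67 became 0 in each prefix, and in prefix B r was -0.11 for UHRF1, -0.12 for DNMT1 and -0.053 for DNMT3A. The cause of these changes was not tested. Fits within a prefix hold fewer libraries, and their slopes are per SD of the reference within that prefix.

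Leaving out each library in turn gave 3 to 6 calls between the prefixes, 6 to 7 slopes on DCX, 1 to 5 slopes on MKI67, 3 to 5 on DCX given MKI67 and 0 on MKI67 given DCX. It gave 6 to 7 called correlations with DCX and 1 to 5 with MKI67. The slope of DNMT3A on MKI67 given DCX then ran from -0.0040 to 0.030.

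Over all genes, the prefix comparison called 2907, against 4438 with the library total as a covariate, 1439 with MKI67, 0 with DCX and 1161 with title numbers below 20000. For slopes on DCX 5214 genes became 1575 with the prefix as a factor, 51 in prefix A and 1006 in prefix B, and given MKI67 4565 became 1361, 29 and 997. For slopes on MKI67 390 became 901 by DESeq2, 231 with the library total, 254 without the 2 farthest libraries, 11 with the prefix as a factor, 25 in prefix A, 0 in prefix B and 80 to 1150 without 1 library. Given DCX 4 became 75 by DESeq2, 9 with the no-feature share, 1 with the library total, 0 with the other alternatives that changed it and 0 to 25 without 1 library. The 1 gene whose DCX slope differed between prefixes was not called by limma-trend. Scaling by DESeq2 size factors moved the median of all genes by at most 0.0112 on the log2 scale. The interactions by limma-trend were chosen after seeing the data. No paired analysis was possible because the replicate numbers follow only the order of deposition and no 2 groups share them. UHRF1, DNMT3B and MKI67 had as few as 17, 34 and 24 counts in a library, so single values of these genes carry the most counting error.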
